A study of Mus musculus with 6 samples.

Results

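Antigen presentation genes of the major histocompatibility complex (MHC) were examined in mouse colon. A fixed list of 10 genes was taken by symbol from the count tables, which held 24517 genes. All 10 were found, and all 10 passed the filter on low counts. The class II group held 7 of them: the chain genes H2-Aa, H2-Ab1 and H2-Eb1, the invariant chain Cd74, the peptide editor subunits H2-DMa and H2-DMb1, and the master regulator Ciita. The class I group held the remaining 3: B2m, the light chain, Tap1, a subunit of the peptide transporter, and Nlrc5, the class I regulator.

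The study placed mice with an intestine-specific knockout of NSD2, a histone methyltransferase acting on lysine 36 of histone H3, beside floxed controls. Colon RNA came from 3 Nsd2fl/fl and 3 Nsd2ΔIE mice (NSD2fl/fl and NSD2∆IE in the labels), and every animal, controls included, had been fed a high-fat, cholesterol-rich diet (HFCD) for 16 weeks per the labels. The methods give a longer period, and which applies to these libraries was not settled here. The methods name a Villin-Cre line, which acts in epithelial cells of the gut, on a C57BL/6J background. Each library was made from tissue that also held immune and muscle cells, in which this Cre is not active. The methods describe mice put on the diet as young adults, and the labels give no age.

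Of the 10 genes, 6 lie in the MHC on chromosome 17. On GRCm38 (mm10), GENCODE vM21 places H2-DMa at chr17:34119541-34139101, H2-DMb1 at chr17:34153072-34160230 and Tap1 at chr17:34187553-34197225, all on the plus strand. Further along lie H2-Ab1 at chr17:34257689-34269419 (plus), H2-Aa at chr17:34282744-34287823 (minus) and H2-Eb1 at chr17:34305867-34316674 (plus). The remaining 4 lie elsewhere: B2m at chr2:122147686-122153083, Nlrc5 at chr8:94434356-94527272, Ciita at chr16:10480059-10528418 and Cd74 at chr18:60803848-60812652, each on the plus strand.

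MHC molecules show peptides to T cells. Class II chains pair in the endoplasmic reticulum, where the invariant chain fills the groove, and H2-DM later exchanges its remnant for peptides cut in endosomes. Dendritic cells, macrophages and B cells make class II at all times, and interferon gamma can switch it on in epithelium by raising CIITA, which binds no DNA itself and docks on factors held at the X and Y boxes of class II promoters. Class I chains are made by nearly all nucleated cells, take their peptides from the TAP transporter, and are raised by NLRC5 through a related promoter module.

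Promoter sequences of the members that had an entry were searched for short letter patterns, given below. RefSeq promoter entries on GRCm38.p6 were matched for 6 of the 10 genes (H2-Aa, H2-Eb1, H2-DMa, H2-DMb1, B2m and Tap1). The window searched ran from 250 bases before the start to the start, on both strands. For an X box core the letters searched were AG, any 2 bases, AC, any 2 bases and ATG, and for a Y box core ATTGG or its complement CCAAT. For an interferon-stimulated response element (ISRE) they were GAAA, any 2 bases and GAAA, and for a gamma-activated site (GAS) TTC, any 3 bases and GAA. Stretches of 150 bases that end at the gene's start are printed 5′ to 3′ on the gene's strand, and matches to these letters are in capitals. H2-Eb1 (chr17:34305717-34305866, plus) and H2-DMb1 (chr17:34153041-34153190, plus) are shown for the X and Y letters together, H2-Aa (chr17:34287824-34287973, minus) for Y letters without those X letters, B2m (chr2:122147537-122147686, plus) for the ISRE and Y letters, and H2-Ob (chr17:34238755-34238904, plus), a class II gene outside the list, because its X and Y letters resemble those of H2-Eb1 while its levels followed another course. The Tap1 entry (chr17:34187331-34187555, plus) is the whole stretch of 225 bases between the starts of Tap1 and of Psmb9, an immunoproteasome subunit transcribed the other way.
H2-Eb1: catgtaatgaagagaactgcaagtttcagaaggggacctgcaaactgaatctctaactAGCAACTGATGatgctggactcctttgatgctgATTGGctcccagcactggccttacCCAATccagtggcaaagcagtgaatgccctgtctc
H2-DMb1: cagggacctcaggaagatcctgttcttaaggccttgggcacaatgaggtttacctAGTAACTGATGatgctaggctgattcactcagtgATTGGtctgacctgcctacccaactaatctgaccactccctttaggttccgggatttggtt
H2-Aa: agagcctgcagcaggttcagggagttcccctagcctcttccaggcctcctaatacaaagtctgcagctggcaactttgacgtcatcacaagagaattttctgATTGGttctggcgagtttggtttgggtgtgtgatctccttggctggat
H2-Ob: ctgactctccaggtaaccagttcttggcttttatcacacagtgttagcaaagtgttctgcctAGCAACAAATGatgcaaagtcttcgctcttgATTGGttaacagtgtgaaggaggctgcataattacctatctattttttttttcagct
B2m: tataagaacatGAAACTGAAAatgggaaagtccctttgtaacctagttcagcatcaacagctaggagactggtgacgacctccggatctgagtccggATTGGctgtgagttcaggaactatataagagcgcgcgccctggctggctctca
Tap1: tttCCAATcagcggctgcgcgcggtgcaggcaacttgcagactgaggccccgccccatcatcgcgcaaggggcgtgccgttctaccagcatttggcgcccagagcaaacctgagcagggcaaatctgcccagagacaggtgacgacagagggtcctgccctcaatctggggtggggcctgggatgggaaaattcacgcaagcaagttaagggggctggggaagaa

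The X letters began 92 bases before the start of H2-Eb1 and 95 before that of H2-DMb1, and the Y letters followed 33 and 34 bases downstream of the X letters. In H2-Ob the X letters began 88 bases before the start and the spacing was 31 bases. H2-Eb1 also held the letters CCAAT, 35 bases before its start, and no match overlapped another in the printed stretches. Of 32851 promoter entries in the table, 2.60% held the X letters, 33.8% the Y letters, 2.98% the ISRE letters and 7.02% the GAS letters. X followed by Y on a single strand at a spacing of 25 to 40 bases, a range set after these sequences were seen, was found in 18 entries (0.0548%) from 17 genes, and H2-Eb1, H2-DMb1, H2-Ob and H2-Eb2 were 4 of those genes. The class II genes H2-Aa, H2-DMa, H2-DMb2 and H2-Oa also had entries and held no such pair, and H2-DMa held no X letters. None of the matched members held the GAS letters. Absence of these letters elsewhere says only that this spelling was not in the window.

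Depth was even, with library totals from 38041832 to 38604680 counts, so a count of 0 allows at most 3 counts, under 0.1 CPM (reads put on a common library scale with TMM factors). The labels were checked first. Nsd2, the targeted gene, had from 1840 to 2455 counts in the Nsd2fl/fl libraries and from 914 to 1139 in the Nsd2ΔIE libraries. Xist, the RNA of the inactive X chromosome, had 0 to 4 counts in the Nsd2fl/fl libraries and 21217 to 24234 counts in the Nsd2ΔIE libraries, and 4 Y-linked genes together had 5058 to 6110 counts in the former and 0 to 1 in the latter. The methods describe male littermates, and the libraries did not carry that pattern in both groups: what goes with genotype and what goes with sex cannot be told apart here. The libraries also fell on opposite sides of a first principal component computed without the listed genes (51.0% of the variance), with Nsd2fl/fl replicates 1 and 3 and Nsd2ΔIE replicate 1 on its negative side and the remaining 3 on its positive side.

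Levels were compared between genes on FPKM, the deposited count per length and library total. B2m was the most abundant, at a mean of 842 FPKM over the 6 libraries, and Cd74 came next at 524 FPKM. The class II chains followed, with H2-Aa at 286, H2-Ab1 at 210.4 and H2-Eb1 at 143.5 FPKM. The accessory genes were lower, with H2-DMb1 at 20.5, Tap1 at 13.5 and H2-DMa at 2.99 FPKM, and the regulators were lowest, Ciita at 2.22 and Nlrc5 at 1.604 FPKM. Each gene exceeded the next in this order in 6 of 6 libraries. The ranges over libraries were separate between H2-Eb1 and H2-DMb1 and between Tap1 and H2-DMa, and those of every other pair of neighbours overlapped. The place of H2-DMa rests on the deposited gene model, since its counts and FPKM imply a length of 8325 bases, against 3448 bases of GENCODE exons. Other places rest on that model too. The implied lengths of H2-Aa, H2-Ab1 and Tap1 were 1128, 1193 and 2950 bases, against 3798, 2568 and 5476 bases of GENCODE exons. For H2-Eb1 the lengths were 1669 and 1944 bases, so the order of the class II chains could differ under another gene model. In CPM, which ignores length, H2-DMa and H2-DMb1 lay close together in most libraries.

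**Figure D1:**
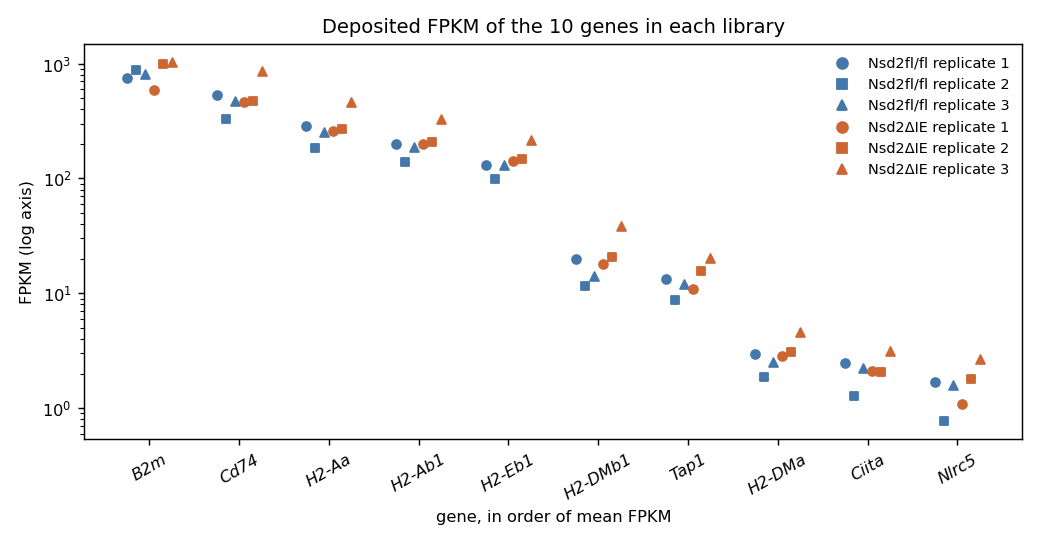
Deposited FPKM on a log axis for the 10 genes in order of their mean, with 1 point per library (colour: genotype; shape: replicate). The regulators Nlrc5 (1.604 FPKM on average) and Ciita (2.22) sit at the low end and B2m (842) at the high end.

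The central question was whether loss of intestinal NSD2 changed these genes. No member passed an adjusted p of 0.05 in the edgeR quasi-likelihood test (0 of 10), and none passed an unadjusted p of 0.05 in either direction. Over all 16347 genes tested, 5 passed the adjusted threshold (0.0306%), and at the unadjusted threshold 2.96% were lower and 8.15% higher in Nsd2ΔIE. Of the genes at that unadjusted threshold 73.3% were higher, a share that was 87.0% with upper-quartile factors and 92.2% with plain library totals. DESeq2 and limma-voom also gave 0 members at an adjusted p of 0.05. At the unadjusted threshold DESeq2 gave 1, H2-DMb1 (adjusted p = 0.385 in DESeq2), and limma-voom gave 0. The Nsd2fl/fl and Nsd2ΔIE ranges overlapped for all 10 members, while among all genes tested 7.28% lay wholly lower and 11.4% wholly higher in Nsd2ΔIE. The estimates were above 0 for 9 members, against 7145 of the 16347 genes tested. The median log2 fold change was 0.34 over the 10, against −0.041 over all genes tested. All 9 were lowest in Nsd2fl/fl replicate 2 and highest in Nsd2ΔIE replicate 3, so their signs are not separate observations. These p-values measure the spread between samples that the labels call replicates. In whole tissue, fewer cells of a type and less RNA per cell cannot be told apart.

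The class II chains were read first. H2-Aa, the alpha chain of the I-A molecule, had 316, 224 and 303 CPM in Nsd2fl/fl replicates 1 to 3 and 286, 298 and 485 CPM in Nsd2ΔIE replicates 1 to 3. H2-Ab1, the beta chain that pairs with it, had 235, 179.9 and 241 CPM against 229, 240.4 and 365 CPM. In both genes Nsd2fl/fl replicate 2 was the lowest library and Nsd2ΔIE replicate 3 the highest, and the remaining 4 lay close together between them. The means of H2-Aa were 281 ± 50.0 and 357 ± 111 CPM (SD, n = 3 in each group), and the log2 fold change was 0.34 (SE 0.25, 95% interval −0.25 to 0.94, adjusted p = 0.654). For H2-Ab1 they were 219 ± 33.7 and 278 ± 75.4 CPM, a log2 fold change of 0.35 (SE 0.222, interval −0.18 to 0.87, adjusted p = 0.614). Both intervals include 0.

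H2-Eb1, the beta chain gene of the I-E molecule, had 217, 179 and 231 CPM in Nsd2fl/fl and 228, 238 and 330.5 CPM in Nsd2ΔIE. The same library was lowest and the same highest. C57BL/6 mice are known to lack the I-E alpha chain, so this transcript has no surface partner there. Its log2 fold change was 0.35 (SE 0.188, interval −0.10 to 0.79, unadjusted p = 0.109, adjusted p = 0.557).

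Cd74, the invariant chain that guides class II molecules to endosomes, had 741, 506 and 719 CPM in Nsd2fl/fl and 643, 648 and 1138 CPM in Nsd2ΔIE. Here both Nsd2ΔIE replicates 1 and 2 lay below Nsd2fl/fl replicates 1 and 3, and the higher Nsd2ΔIE mean (810 ± 285 against 656 ± 130 CPM) came with Nsd2ΔIE replicate 3. The log2 fold change was 0.31 (SE 0.284, interval −0.37 to 0.98, adjusted p = 0.723). Without Nsd2ΔIE replicate 3 it was −0.022.

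The editor subunits had similar CPM. H2-DMa had 24.5, 16.8 and 22.7 CPM in Nsd2fl/fl and 22.98, 24.8 and 35.7 CPM in Nsd2ΔIE. H2-DMb1 had 25.1, 15.9 and 19.5 CPM against 22.4, 26.0 and 45.9 CPM. Nsd2ΔIE replicate 3 was again the highest for both, and H2-DMb1 had the largest estimate of the 10 members, a log2 fold change of 0.64 (SE 0.304, interval −0.085 to 1.36, unadjusted p = 0.0749, adjusted p = 0.499). For H2-DMa it was 0.38 (SE 0.221, interval −0.14 to 0.91, adjusted p = 0.578). H2-DMb1 and H2-DMb2 are near-identical copies, so the split of reads between them is uncertain.

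Ciita, the regulator on which class II transcription depends, had 23.8, 13.5 and 23.5 CPM in Nsd2fl/fl and 20.1, 19.8 and 28.4 CPM in Nsd2ΔIE. The extremes were the same libraries as for the chains. The log2 fold change was 0.17 (SE 0.260, interval −0.45 to 0.78, adjusted p = 0.834), which became −0.056 when Nsd2fl/fl replicate 2 was left out and −0.025 when Nsd2ΔIE replicate 3 was.

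**Figure D2:**
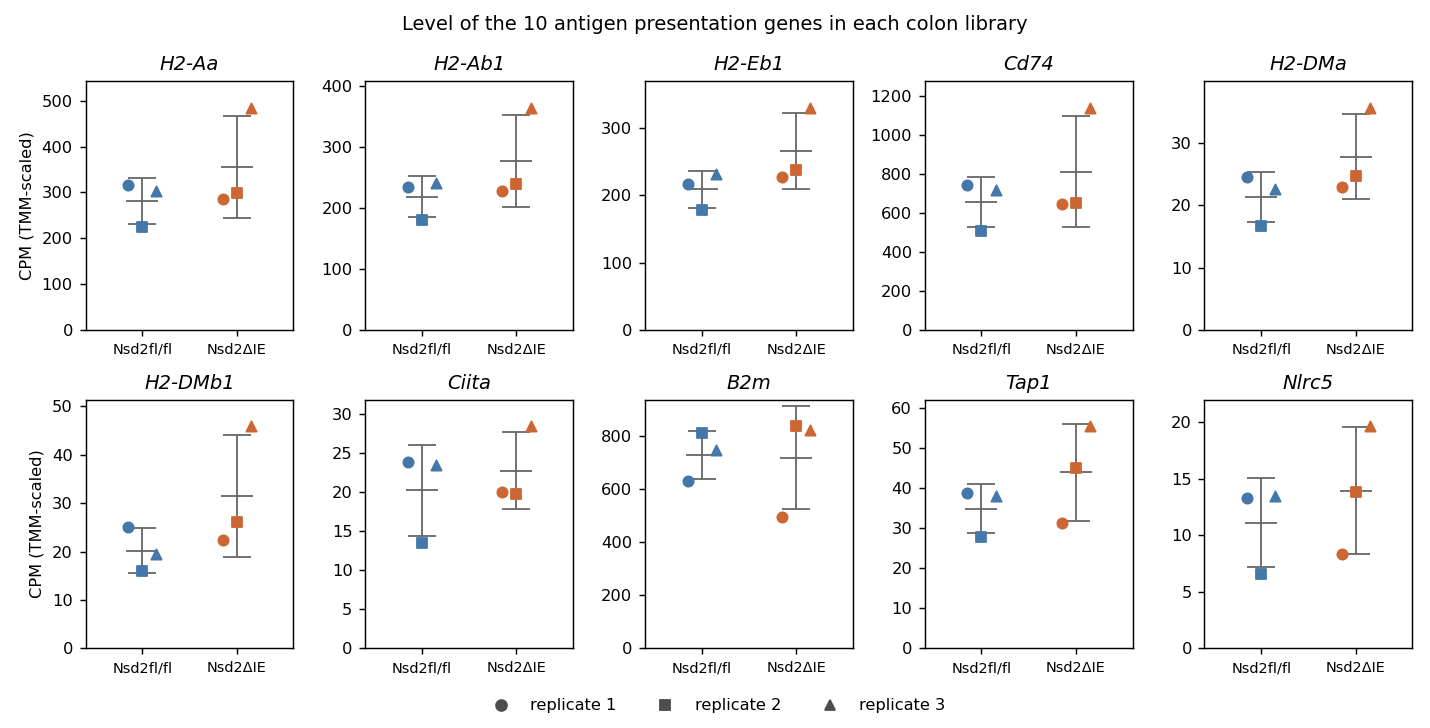
TMM-scaled CPM of each of the 10 genes, from 0, with 1 point per library (shape: replicate) and the group mean with its SD in grey (n = 3 per group). The groups overlap in every panel, and Nsd2ΔIE replicate 3 (triangle) is highest in each except B2m.

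The class I genes did not share this order throughout. B2m, the light chain that every class I molecule needs, had 629.9, 809.5 and 744 CPM in Nsd2fl/fl and 494, 835 and 820.2 CPM in Nsd2ΔIE. Nsd2ΔIE replicate 1 was the lowest library, and Nsd2fl/fl replicate 2 stood among the high ones. Means were 728 ± 90.9 and 716 ± 193 CPM, the log2 fold change was −0.023 (SE 0.239, interval −0.59 to 0.55, adjusted p = 0.978), and it was 0.049 with upper-quartile factors and 0.11 with library totals alone. B2m varied least of the 10 members, by 1.69 times from the lowest to the highest library.

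Tap1 had 38.8, 27.8 and 37.96 CPM in Nsd2fl/fl and 31.4, 45.1 and 55.5 CPM in Nsd2ΔIE. Nlrc5 had 13.3, 6.58 and 13.5 CPM against 8.38, 13.8 and 19.6 CPM. Both were lowest in Nsd2fl/fl replicate 2 and highest in Nsd2ΔIE replicate 3, as the class II genes were, but in both Nsd2ΔIE replicate 1 was the next lowest. Log2 fold changes were 0.34 for Tap1 (SE 0.233, interval −0.22 to 0.89, adjusted p = 0.639) and 0.32 for Nlrc5 (SE 0.387, interval −0.60 to 1.24, adjusted p = 0.784). Nlrc5 varied most, by 2.98 times, and its estimate was −0.0047 without Nsd2ΔIE replicate 3.

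The estimates were also read without the extreme libraries. Nsd2fl/fl replicate 2 also had the lowest, and Nsd2ΔIE replicate 3 the highest, summed level of 8 smooth muscle markers. With both left out, a fit chosen after seeing the data that set 2 libraries against 2, the median log2 fold change of the 7 class II members was −0.018 in place of 0.35, and that of the 3 class I members −0.046 in place of 0.32. H2-Eb1, H2-DMa and H2-DMb1 stayed above 0, at 0.059, 0.020 and 0.12, and the other 7 members were below 0. Since these are the control library lowest and the knockout library highest in class II, leaving them out had to lower the class II estimates, and the fit is given as values only. With the side of the first principal component as a covariate, the medians were 0.35 for class II and 0.28 for class I, B2m was at −0.22, and 0 members were under an unadjusted p of 0.05. Within the sides the differences were unequal. On the negative side (2 Nsd2fl/fl libraries and 1 Nsd2ΔIE library) the Nsd2ΔIE value was above the Nsd2fl/fl mean for 2 of 10 members, with a median log2 difference of −0.15, and on the positive side (1 Nsd2fl/fl library and 2 Nsd2ΔIE libraries) for 10 of 10, with a median of 0.79. Among all 16347 genes the counts above 0 were 7943 and 7848. H2-Aa differed by −0.11 and 0.76, Cd74 by −0.18 and 0.76, Tap1 by −0.29 and 0.85 and Nlrc5 by −0.67 and 1.32 on the negative and positive side. The lone control on the positive side, Nsd2fl/fl replicate 2, was the lowest of all 6 libraries for every member except B2m. For those members the difference on that side had to be above 0, so the 10 of 10 carries no weight of its own. With a lone library in a genotype on either side, these are values with no test.

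The class II chains and the invariant chain kept nearly fixed proportions from library to library. The FPKM ratio of H2-Aa to H2-Ab1 lay between 1.31 and 1.42 in all 6 libraries, that of H2-Eb1 to H2-Ab1 between 0.647 and 0.712, and that of Cd74 to H2-Aa between 1.73 and 1.89. The highest ratio exceeded the lowest by no more than 1.10 times in these 3 pairs, while H2-Aa itself varied 2.17 times in CPM. The ratio to H2-Aa spanned 1.13 times for H2-DMa, 1.32 times for Ciita and 1.47 times for H2-DMb1. The likeness of a gene's course was measured as the root mean square (RMS) difference, on log2 CPM centred on the gene's own mean, from the average course of the 7 class II members over the 6 libraries. That average was 0.029, −0.50 and −0.040 in Nsd2fl/fl replicates 1 to 3 and −0.089, −0.016 and 0.62 in Nsd2ΔIE replicates 1 to 3. The 7 members lay at 0.0262 (H2-Aa) to 0.177 (H2-DMb1) from an average they help to form, against a median of 0.419 over all genes tested, and 118 genes (0.722%), the 7 included, lay no further away than 0.177. Tap1 lay at 0.14, Nlrc5 at 0.26 and B2m at 0.40.

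**Figure D3:**
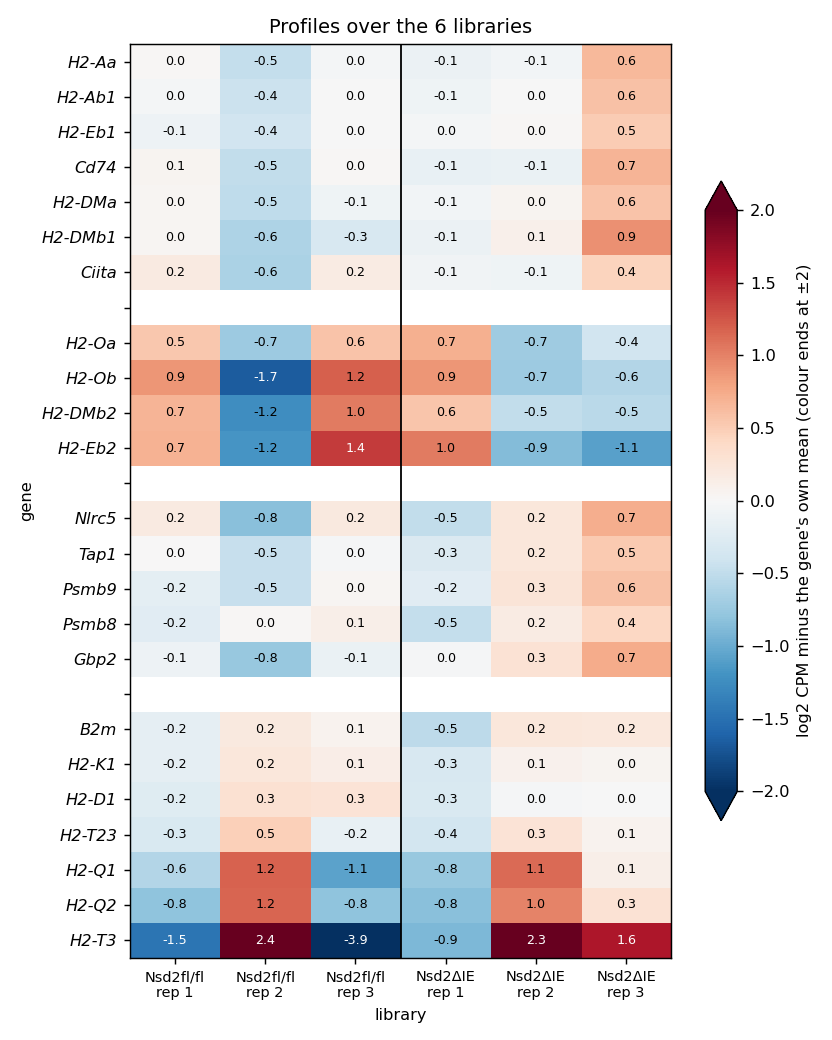
Log2 CPM minus the gene's own mean, for genes in rows and libraries in columns, with the value in each cell (colour ends at ±2). From top to bottom the blocks hold the 7 class II members, 4 further class II genes, Nlrc5 and Tap1 with the interferon-linked Psmb9, Psmb8 and Gbp2, and B2m with class I chains. Other interferon-linked genes are not shown and need not share that course: Irf1 was at 0.68 in Nsd2fl/fl replicate 2. The top block is lowest in Nsd2fl/fl replicate 2 and highest in Nsd2ΔIE replicate 3, while the second block is low in Nsd2fl/fl replicate 2 and in Nsd2ΔIE replicates 2 and 3.

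Outside all lists, the 5 genes nearest to the class II average among those with a mean log2 CPM of at least 1 were Rbm38, an RNA-binding protein gene (RMS 0.079), Clec4a3, a C-type lectin receptor gene of myeloid cells (0.090), Creld1 (0.11), Elk1, an ETS transcription factor gene (0.11), and Mmab, an enzyme gene of vitamin B12 metabolism (0.11). Clec4a3 had 3.22, 2.18 and 2.89 CPM in Nsd2fl/fl and 2.47, 3.03 and 4.34 CPM in Nsd2ΔIE. These genes were picked for this likeness over 6 libraries, and no test was made of it.

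Class II genes outside the list took another course. H2-Ob, the beta chain of the H2-O molecule that restrains H2-DM and is known mainly from B cells, had 15.6, 2.63 and 19.3 CPM in Nsd2fl/fl and 15.6, 5.05 and 5.62 CPM in Nsd2ΔIE. It was high in the 3 libraries on the negative side of the first principal component and low in the other 3, whatever the genotype (log2 fold change −0.51, SE 0.744, unadjusted p = 0.512). H2-Oa, its alpha chain, H2-DMb2 and H2-Eb2 were also highest in those 3 libraries. H2-Ob lay at RMS 1.04 from the class II average and at 0.320 from the average of 10 B cell markers, and H2-Eb2 at 1.14 and 0.470. H2-DMb2 lay at 0.829 and 0.561. H2-Oa was nearer to the class II average, at 0.685 and 0.797, and the 7 class II members at 1.21 to 1.45 from the B cell marker average. The FPKM ratio of H2-Ob to H2-DMb1 ranged from 0.0519 to 0.418, an 8.06-fold span, while both promoters held the X and Y letters printed above.

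The levels of cell type markers are given because class II is made by particular cells. Summed B cell markers were 115, 16.6 and 152 CPM in Nsd2fl/fl and 103, 29.6 and 31.2 CPM in Nsd2ΔIE, an order over the libraries unlike that of the class II members. The 10 dendritic cell markers, all with reads in every library, summed to 48.4, 36.4 and 45.6 CPM in Nsd2fl/fl and 51.8, 41.4 and 46.4 CPM in Nsd2ΔIE. The sum was lowest in the library where class II was lowest. It was highest in Nsd2ΔIE replicate 1, not in Nsd2ΔIE replicate 3, where class II was highest. The 10 macrophage markers summed to 280 to 362 CPM in Nsd2fl/fl and 356 to 375 CPM in Nsd2ΔIE, with the lowest and highest sums in Nsd2fl/fl replicate 2 and Nsd2ΔIE replicate 3, the same libraries as for class II. Single markers did not all share this. Adgre1, Fcgr1, C1qa, C1qb and C1qc were highest in Nsd2ΔIE replicate 3, Csf1r, Cd68 and Mrc1 in Nsd2fl/fl replicate 1, and Cd163 and Cx3cr1 in Nsd2ΔIE replicate 2. Cd163, Cx3cr1 and Fcgr1 were lowest in Nsd2fl/fl replicate 3.

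Other tissue components moved too. The 10 epithelial markers, which check the labelled tissue, summed to 18270.1 to 36938 CPM in Nsd2fl/fl and 18353 to 23270 CPM in Nsd2ΔIE, highest in Nsd2fl/fl replicate 2. The 8 smooth muscle markers summed to 4051, 1412 and 4088 CPM in Nsd2fl/fl and 5087, 6707 and 10894 CPM in Nsd2ΔIE, so the groups did not overlap, and 6 of the 8 genes were higher at an unadjusted p of 0.05 (8.15% over all genes). Of 6 adipocyte markers 2 had reads in every library, and their sums ran from 1.58 to 18.6 CPM and from 13.5 to 50.4 CPM. Of the 5 adipocyte genes tested all 5 estimates were above 0, against 7145 of 16347 genes tested. At an unadjusted p of 0.05, 2 were higher (8.15% over all genes). In 3 the groups did not overlap, with Nsd2ΔIE higher (11.4% over all genes). Without Cidec, which made up nearly all of the sum in Nsd2fl/fl replicate 2 (18.6 CPM), the sums were 0.909, 0.0565 and 5.56 CPM in Nsd2fl/fl and 10.2, 11.3 and 35.9 CPM in Nsd2ΔIE, with no overlap. The 9 T cell markers in the tables summed to 34.9 to 58.3 CPM and 41.7 to 60.9 CPM, and the 6 endothelial markers to 176 to 210 CPM and 191 to 213 CPM. Of the T cell genes 1 was higher at an unadjusted p of 0.05, and in 2 the groups did not overlap, with Nsd2ΔIE higher. The 10 macrophage genes gave the same 2 counts. The groups were also apart in 3 endothelial genes, with Nsd2ΔIE higher, and in 2 epithelial genes, with Nsd2ΔIE lower (7.28% over all genes). None of these endothelial or epithelial genes was under that p. The part of any of these in the class II differences was not tested.

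**Figure D4:**
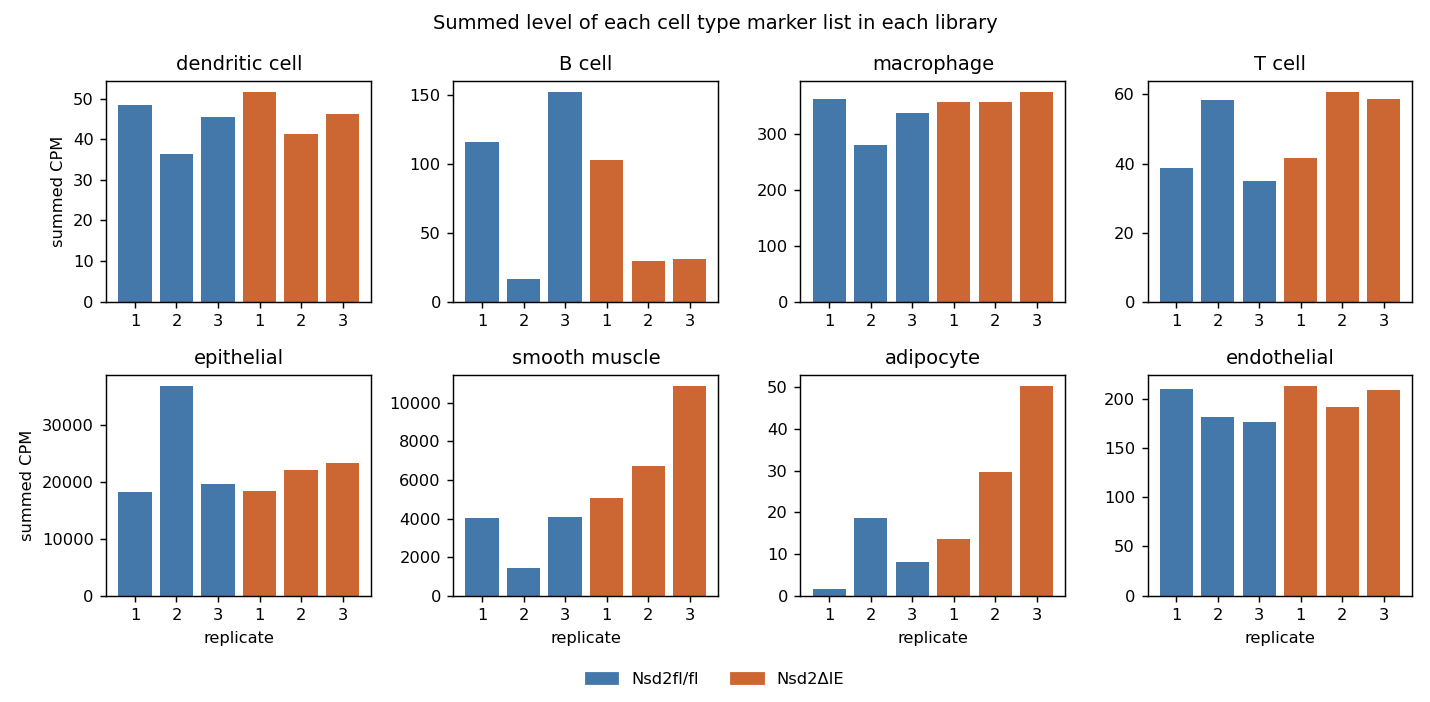
Summed CPM of 8 cell type marker lists in each library, with bars from 0 and 1 bar per replicate of each genotype (colour). Smooth muscle markers separate the genotypes and reach 10894 CPM in Nsd2ΔIE replicate 3, while B cell markers are high in Nsd2fl/fl replicates 1 and 3 and Nsd2ΔIE replicate 1.

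The wider pathway was read from 9 lists holding 77 genes, of which 75 were in the tables and 74 were tested. None passed an adjusted p of 0.05 in edgeR, DESeq2 or limma-voom. At an unadjusted p of 0.05 edgeR gave 2 higher and 2 lower of 74, against 8.15% and 2.96% of all genes, DESeq2 3 and 3, and limma-voom 2 and 3. In 3 genes the groups did not overlap with Nsd2ΔIE higher and in 5 with Nsd2ΔIE lower, against 11.4% and 7.28% of all genes. The estimates were above 0 for 32 genes and below 0 for 42, with a median of −0.015.

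Upstream of class II stand the factors on which CIITA docks. Of 8 class II transcription genes (Ciita, the RFX and NF-Y subunits and Creb1), 2 estimates were above 0 and 6 below, with a median of −0.14. Nfya, a subunit of the NF-Y complex that binds the Y box, was the single gene of that list under an unadjusted p of 0.05. It had 58.4, 51.2 and 50.7 CPM in Nsd2fl/fl and 46.5, 44.5 and 42.1 CPM in Nsd2ΔIE, and every Nsd2ΔIE value lay below every Nsd2fl/fl value. Its log2 fold change was −0.27 (SE 0.105, unadjusted p = 0.0383, adjusted p = 0.423). Rfx5, the X box factor, had 15.7, 14.5 and 14.2 CPM against 16.4, 17.5 and 17.8 CPM, with no overlap, and a log2 fold change of 0.22 (SE 0.119, unadjusted p = 0.111). The groups were also apart, with Nsd2ΔIE lower, for Creb1, at 46.0 to 51.5 against 40.2 to 44.9 CPM (log2 fold change −0.19, unadjusted p = 0.101), and for Nfyc, at 47.7 to 48.1 against 43.1 to 47.2 CPM (−0.089, unadjusted p = 0.359).

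Of 9 endosomal processing genes, 8 estimates were below 0 (median −0.052). Ctss, cathepsin S, which trims the invariant chain in antigen-presenting cells, had 365, 358 and 331 CPM in Nsd2fl/fl and 302, 291 and 229.8 CPM in Nsd2ΔIE. The groups did not overlap, and Nsd2ΔIE replicate 3, the library with the most class II transcript, had the least Ctss. Its log2 fold change was −0.36 (SE 0.147, unadjusted p = 0.0459, adjusted p = 0.439). Neither Nfya nor Ctss was under an unadjusted p of 0.05 when upper-quartile factors or plain library totals were used, or with the extreme libraries left out. Nfya was then at −0.20, −0.15 and −0.26, and Ctss at −0.29, −0.24 and −0.23, in that order, the last with 2 libraries per group. With the side of the first principal component as a covariate in edgeR, Nfya was at −0.24 (unadjusted p = 0.0724) and Ctss at −0.33 (unadjusted p = 0.0687). When each library was left out in turn, Nfya was under 0.05 only without Nsd2fl/fl replicate 3, and Ctss only without Nsd2ΔIE replicate 1.

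Of 14 class I chain genes tested, 7 estimates were above 0 and 7 below (median 0.034), and none was under an unadjusted p of 0.05. Several of them, such as H2-K1, H2-D1 and the H2-Q genes, are close copies whose reads the counting could split, so their separate counts are uncertain. H2-K1, a classical chain, had 1029, 1358 and 1283 CPM in Nsd2fl/fl and 931, 1240.2 and 1205 CPM in Nsd2ΔIE, and the FPKM ratio of B2m to H2-K1 stayed between 1.35 and 1.73. H2-T3, the thymus leukaemia antigen known from intestinal epithelium, had 8.83, 126 and 1.54 CPM against 13.2, 123 and 75.3 CPM. It was high in the 3 libraries on the positive side of the first principal component, the opposite of H2-Ob, and its genotype estimate was 0.63 (SE 1.43, unadjusted p = 0.672). Without Nsd2fl/fl replicate 2 that estimate was 3.75 (unadjusted p = 0.0152, adjusted p = 0.325), and with the extreme libraries left out 3.71 (unadjusted p = 0.0293, adjusted p = 0.810). Nsd2fl/fl replicate 2 had the most H2-T3 of all libraries, so leaving it out had to raise the estimate. The controls that remained both lay on the negative side of that component, and these estimates are given as values only.

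In the 13 peptide loading genes, 5 estimates were above 0 and 8 below (median −0.012). Psmb9 had 24.5, 20.3 and 28.8 CPM in Nsd2fl/fl and 24.02, 33.3 and 41.9 CPM in Nsd2ΔIE (log2 fold change 0.43, SE 0.230, adjusted p = 0.551). Tap1, whose start lies 226 bases from that of Psmb9, held an FPKM ratio to Psmb9 of 0.492 to 0.597, a 1.21-fold span. Its ratio to Tap2, the other transporter subunit, ranged from 0.578 to 1.09, a 1.88-fold span. Tap2 itself stayed between 40.6 and 48.2 CPM.

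In the interferon gamma route, Ifng itself had 2, 4 and 2 counts in Nsd2fl/fl and 2, 10 and 2 counts in Nsd2ΔIE and was too low to be tested, and 3 of the 9 genes tested had estimates above 0 (median −0.19). Gbp2, an interferon-induced GTPase gene, had 44.0, 28.0 and 43.0 CPM in Nsd2fl/fl and 46.5, 57.6 and 79.1 CPM in Nsd2ΔIE, with no overlap. Its lowest and highest libraries were those of the class II members, and its log2 fold change was 0.67 (SE 0.25, unadjusted p = 0.0320, adjusted p = 0.406). Ifngr1, a chain of the interferon gamma receptor, lay apart in the other direction, at 286, 353 and 289.6 CPM against 277, 232 and 211 CPM (log2 fold change −0.37, SE 0.157, unadjusted p = 0.0531, adjusted p = 0.455). It was under an unadjusted p of 0.05 in DESeq2, in limma-voom, without the filter on low counts and without Nsd2ΔIE replicate 1. Irf1, an interferon-induced factor that feeds into Ciita and Nlrc5, had 146, 275 and 163 CPM against 114, 185 and 186 CPM. The groups overlapped, with a log2 fold change of −0.27 and an adjusted p of 0.767. With the side of the first principal component as a covariate, Irf1 was at −0.50 (unadjusted p = 0.00369, adjusted p = 0.314).

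Among the class I-like genes, Mr1, which shows microbial vitamin metabolites to mucosal-associated invariant T cells, had 6.08, 4.46 and 3.99 CPM in Nsd2fl/fl and 6.74, 7.09 and 8.39 CPM in Nsd2ΔIE. The groups did not overlap, and the log2 fold change was 0.61 (SE 0.222, unadjusted p = 0.0289, adjusted p = 0.393). With the extreme libraries left out, Mr1 was at 0.46 and Gbp2 at 0.26, neither under an unadjusted p of 0.05. The 6 class I transcription genes gave 2 estimates above 0 and 4 below (median −0.16), and none of them or of 6 costimulation genes (5 above 0, median 0.066) was under an unadjusted p of 0.05.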

How the data were processed

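Total RNA from 6 colon samples was extracted with TRIzol and sequenced by the authors. The authors deposited raw read counts for each gene symbol in each library, and also deposited FPKM, the count scaled to gene length and library total. The submitters' processing notes name fastp, HISAT2, HTSeq, R 3.2.0 and build mm10. The gene annotation and whether strand was used are not given in the sources used here. All 6 libraries, grouped by their labels, entered the comparison.

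Counts were tested with edgeR 4.0.16 in R 4.3.3 (filterByExpr, TMM factors, quasi-likelihood test, two-sided, no covariates), with Benjamini-Hochberg adjustment over 16347 genes. SEs were derived from the log2 fold change and its F statistic. FPKM was used only for levels between genes. Centred log2 CPM used a prior count of 2. No pair of libraries agreed within sampling noise. Alternatives were RLE and upper-quartile factors, library totals alone, DESeq2 1.42.0, limma-voom (limma 3.58.1), no filter, a replicate block, the side of the first principal component as a covariate, each library left out in turn and, chosen after seeing the data, the extreme pair left out together.

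The 10 members and the lists were chosen with earlier results of these data known. Named beside the members are list genes under an unadjusted p of 0.05, at most 4 per list, and the 5 genes nearest to the class II average. Other genes (H2-Ob, H2-Oa, H2-DMb2, H2-Eb2, H2-T3, H2-K1, Psmb9, Tap2, Rfx5, Creb1, Nfyc, Irf1, Ifng, Ifngr1, Cidec and the single macrophage markers) were singled out after their values were seen. The values of some list genes are not reported here, although the counts and sums over the lists include them. Counts of 0 and their floors cover counting error only.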

Additional observations from a re-analysis of the deposited data

How the results depend on the processing

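Across all 15 alternatives, 0 members and 0 pathway genes had an adjusted p under 0.05, while over all genes DESeq2 gave 455 in place of 5 and the fits without Nsd2fl/fl replicate 1 or 3 gave 3. Over all genes, lower calls at an unadjusted p of 0.05 were 484, 240 with upper-quartile factors, 149 when plain library totals were used, 747 with the replicate block, 210 with the extreme libraries left out and 146 to 932 with each library left out, and higher calls were 1332, 766 with the extreme libraries left out and 675 to 1751 with each library left out. With both extreme libraries left out, Cd74 was at −0.18, Ciita at −0.25, H2-Aa at −0.080, H2-Ab1 at −0.018, Nlrc5 at −0.27 and Tap1 at −0.0029 on the log2 scale, the median of the class II members was −0.018, and 0 pathway genes were lower at an unadjusted p of 0.05. B2m turned above 0 with upper-quartile factors (0.049) and with library totals alone (0.11), which raised the median of all genes by 0.127, and under both settings 0 pathway genes were lower at an unadjusted p of 0.05. DESeq2 put 1 member, H2-DMb1, under an unadjusted p of 0.05. Leaving out each library in turn gave log2 fold changes of −0.15 to 0.19 for B2m, −0.022 to 0.45 for Cd74, −0.056 to 0.30 for Ciita and −0.0047 to 0.59 for Nlrc5, class II medians of 0.10 to 0.47, 0 to 2 members higher, and 0 to 6 pathway genes higher and 0 to 4 lower at an unadjusted p of 0.05. The extremes came without Nsd2ΔIE replicate 1, which gave 2 members (H2-DMb1 and Tap1) and 6 pathway genes higher, and without Nsd2fl/fl replicate 1, which gave 4 lower. No pathway gene was higher without Nsd2fl/fl replicate 3, and none was higher or lower in 2 further fits, without Nsd2ΔIE replicate 2 and without Nsd2ΔIE replicate 3. These causes were not tested.

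The fit with a replicate block gave medians of 0.33 (class II) and 0.31 (class I), and 3 higher and 3 lower pathway genes. It changed no call of a member. Same-numbered libraries correlated at 0.50, 0.64 and −0.17 in their deviations from the group means, so not every pair deviated together, and the numbers were not taken to pair the libraries. The pooled SD of the class II average within groups was 0.344 on the log2 scale, close to the class II median of 0.35.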
